A study of Mus musculus with 7 samples.

Results

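The miR-200 family of mouse microRNAs (miRNAs) comprises 5 hairpins, mir-200a, mir-200b, mir-429, mir-200c and mir-141, each of which yields a 5p and a 3p mature arm. All 10 arms were found by name among the 1915 entries of the count table, and all 10 passed the filter on low counts. The miRNAs were counted by small RNA sequencing in colorectum of female wild type C57BL/6 mice, 3 healthy (M1, M2 and M3) and 3 with colorectal cancer (CRC; M4, M5 and M6). By the protocol, CRC mice were injected with azoxymethane (AOM), a colon carcinogen, at 10 mg/kg. From 5 days later they were given 2.5% DSS (dextran sodium sulfate, an agent that damages the colon epithelium) in drinking water for 7 days. Water for 14 days followed. The protocol repeats this cycle. The sampled stage is labelled T1, at day 17 of induction. How that day relates to the 14 days of water and to the repeats was not established here. Healthy mice had received 0.9% NaCl, and the protocol gives an age of 7 weeks at injection. The samples used here include none with AOM alone or DSS alone. What belongs to the carcinogen, to the colitis or to tumours cannot be told apart, and the treated group is called CRC throughout. The labels list 2 libraries of M1 and the table holds 1 column of that name, used as 1 replicate.

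A miRNA pairs with messenger RNAs mainly through its seed, bases 2 to 8 from the 5′ end, and represses them. The miR-200 family is known as a keeper of the epithelial state: its 3p arms repress Zeb1 and Zeb2, transcription factors that switch off E-cadherin and drive the epithelial-mesenchymal transition (EMT), and Zeb1 in turn represses the transcription of both family loci. In the gut the family is made in epithelial cells and is scarce in muscle and connective tissue. Messenger RNAs were not measured in these libraries.

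The 3p arms fall into 2 seed groups that differ by 1 base within the seed, and they are shown first because the comparisons below turn on which arm belongs to which group. Capitals mark the seed, the prefix mmu stands for mouse, and sequences and positions are those of RefSeq on GRCm38.p6. All 10 deposited sequences matched RefSeq.
mmu-miR-200b-3p: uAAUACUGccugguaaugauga
mmu-miR-200c-3p: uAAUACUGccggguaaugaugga
mmu-miR-429-3p: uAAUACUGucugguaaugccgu
mmu-miR-200a-3p: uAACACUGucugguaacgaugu
mmu-miR-141-3p: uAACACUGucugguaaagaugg

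Counted from the 5′ end, the seed difference is C4U from miR-200a-3p to miR-200b-3p. In this table no other entry carried the seed AAUACUG or AACACUG. Within a seed group the arms are close to each other: miR-200a-3p and miR-141-3p differ by 2 of 22 bases, C17A and U22G, and miR-200b-3p and miR-200c-3p by 2 of 22 bases, U11G and A22G. miR-429-3p differs from miR-200b-3p by 4 bases. The sources used here do not give how reads too short to span such a base were assigned.

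The seed groups cut across the genome. Mir200b (156055681 to 156055750), Mir200a (156054896 to 156054985) and Mir429 (156053905 to 156053987) lie within 1846 bases on the minus strand of chromosome 4, in introns of the protein-coding Ttll10. The noncoding Gm13648 overlaps them on the same strand, with an exon at Mir429. Mir200c (124718322 to 124718390) and Mir141 (124717914 to 124717985) lie within 477 bases on the minus strand of chromosome 6, in introns of the noncoding Gm15884, and Mir141 also overlaps the exon of Gm29008. Each cluster is known to be made as a shared primary transcript, so each locus supplies miRNAs of both seed groups.

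Their 5p partners, the minor arms, were less alike. They are shown because their levels are set against those of the 3p arms below.
mmu-miR-200b-5p: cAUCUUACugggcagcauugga
mmu-miR-200a-5p: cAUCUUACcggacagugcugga
mmu-miR-429-5p: gUCUUACCagacaugguuaga
mmu-miR-200c-5p: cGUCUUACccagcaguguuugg
mmu-miR-141-5p: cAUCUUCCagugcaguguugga

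Here the 2 arms miR-200b-5p and miR-200a-5p share a seed, and within the family the other three each have their own. The closest 5p pairs differ by 5 bases.

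Total miRNA counts ran from 3206127 in M6 to 15280434 in M2, so that a count of 0 would allow up to 0.936 CPM in M6, where CPM is the usual scaling of counts to a common library size. Every member had at least 46 counts in every mouse. Levels below are CPM on library sizes scaled by TMM, which lines up the bulk of the miRNAs across profiles. The TMM factors ran from 0.582 to 1.10 in the healthy and from 0.949 to 1.55 in the CRC mice. Scaled by total counts alone, all log2 fold changes lay higher by a median of 0.71. Directions of single arms are therefore relative to TMM, while the ratios within a mouse given further on need no scaling. All 8 listed miRNAs of intestinal epithelium were present, at 6.06% to 7.92% of reads in healthy and 7.00% to 10.5% in CRC mice. The intervals of read shares and the floors cover counting error only. Those of fold changes and of the arm balance include the spread between mice.

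On the 10 members, M3 and M4 stood closest, although M3 is healthy and M4 is a CRC mouse. The root mean square difference of their log2 CPM was 0.138, against 0.236 between M1 and M2 and 0.403 between M5 and M6. Between mice of different such pairs it was 0.540 or more. Over all 878 tested miRNAs M3 was also nearer to M4 (0.860) than to the other healthy mice (1.13 and 1.19), and M4 nearer to M3 than to the other CRC mice (1.32 and 1.30). M3 and M4 lay further apart there than M1 and M2 (0.474) or M5 and M6 (0.733). A mix-up of samples cannot be checked from these files, and every group mean and fold change below takes the labels as given. Values without M3 and M4 are given as a description only. That pair was chosen because a healthy and a CRC mouse were alike, so leaving it out widens the gap between the groups by its choice, and the counts passing a threshold there are no test.

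The family was abundant in all mice. Its 10 arms together took 6.59%, 5.57% and 7.11% of miRNA reads in M1, M2 and M3, against 6.10%, 7.53% and 8.68% in M4, M5 and M6. The Wilson 95% interval was at most 0.0308 percentage points to either side. The mean was 6.42% ± 0.779 in healthy and 7.44% ± 1.30 in CRC mice (SD, n = 3 each), and the groups overlapped (exact two-sided permutation test, p = 0.4). The difference of 1.01 percentage points was 0.39 without M6, 0.59 without M2, 1.68 without M4 and 2.03 without M3 and M4. This was 1 of 7 such tests, whose smallest possible p with 3 mice against 3 is 0.1, so that none could pass 0.05. Its adjusted p was 0.7. The 6 listed smooth muscle miRNAs, 6 of 6 present, took 21.1% to 48.0% of reads in healthy and 6.55% to 20.7% in CRC mice. None of the 6 passed the adjusted p in edgeR, and all 6 had an unadjusted p under 0.05 (23.2% of all tested, 9.68% lower). Their median log2 fold change on the TMM scale was -1.98, against -0.03 over all tested miRNAs. With miR-143-3p and miR-145a-5p, their most abundant members, taken out of the total, the family share was 11.2%, 10.6% and 8.97% in M1, M2 and M3 and 7.67%, 8.09% and 9.28% in M4, M5 and M6, so the difference between the groups turned round. The part of muscle in these shares beyond that was not tested, and in such bulk samples fewer epithelial cells and less miRNA per cell cannot be told apart.

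**Figure D1:**
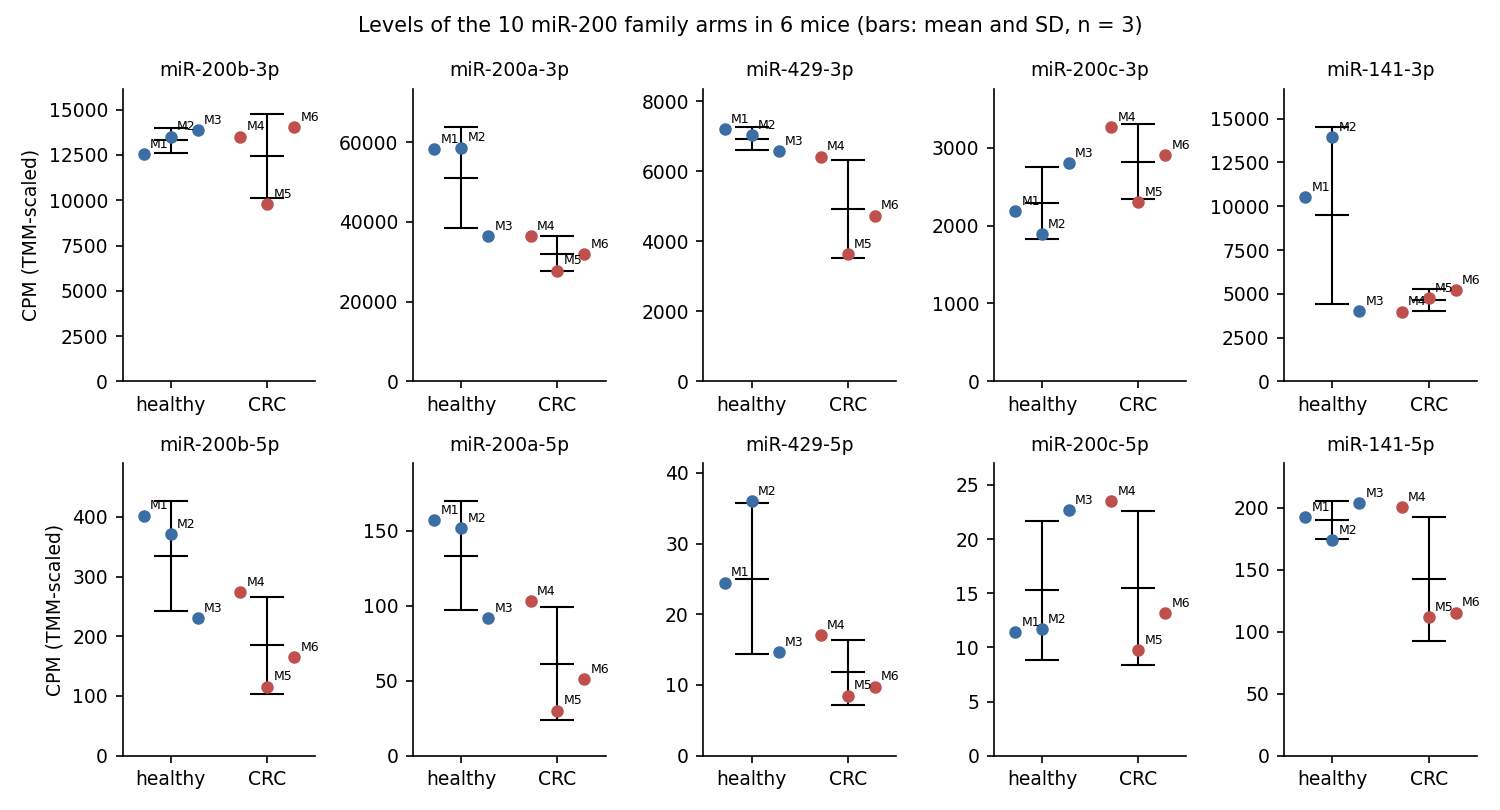
Levels of the 5 3p arms (upper row) and 5 5p arms (lower row) in TMM-scaled CPM, each panel with its own axis from 0; points are mice and black bars the mean and SD of 3 mice. In the panel of miR-200a-3p the 3 CRC mice lie at or below 36467 CPM and M3 lies just above them at 36508 CPM, while M1 and M2 lie at 58202 and 58677 CPM.

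The order of the levels was set first by the arm and then by the hairpin. miR-200a-3p was the highest, with a mean of 41591 CPM over the 6 mice and rank 5 by mean level among all tested miRNAs. miR-200b-3p followed at 12878 CPM, then miR-141-3p at 7068 CPM, miR-429-3p at 5936 CPM and miR-200c-3p at 2554 CPM. miR-200a-3p was above every other arm in each mouse without overlap. The ranges of miR-200b-3p and miR-141-3p overlapped, as did those of miR-141-3p and miR-429-3p, so their order is not fixed by these mice. Mature miRNAs have nearly the same length, here 21 to 23 bases, and the ligation efficiency of each sequence, which also sets its count, was not measured.

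The 5p arms were lower than every 3p arm. miR-200b-5p had a mean of 260 CPM, miR-141-5p 166 CPM and miR-200a-5p 97.4 CPM, in that order in each of the 6 mice. miR-429-5p at 18.4 CPM and miR-200c-5p at 15.4 CPM were the lowest, and their order differed between mice. The 3p arms held 99.0% to 99.4% of all reads of the family.

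Between CRC and healthy colorectum 0 members were called. Of 878 tested miRNAs 20 (2.28%) passed a Benjamini-Hochberg adjusted p of 0.05 in the quasi-likelihood test of edgeR. All 20 were higher in CRC mice and 0 were lower. With no miRNA called lower, the lack of calls in edgeR cannot tell whether members fell or were unchanged. At an unadjusted p under 0.05 it was 0 of 10 members, against 23.2% of all tested miRNAs (9.68% lower and 13.6% higher). DESeq2, which called 12.6% of all tested miRNAs, and limma-voom, which called 0, also called 0 members. At an unadjusted p under 0.05 DESeq2 had 2 of the 10 members (26.5% of all tested) and limma-voom 1 (24.6% of all tested). Of the 10 members 8 had values below 0 (51.5% of all tested), with a median log2 fold change of -0.58 against -0.03 over all tested miRNAs. Only miR-200a-3p and miR-429-3p lay in every CRC mouse below every healthy mouse (2 of 10, against 12.4% of all tested), and 0 of 10 lay above (14.1% of all tested; 26.5% in either direction). Scaled by total counts alone, only 4 of the 10 stayed below 0: miR-141-3p, miR-200a-5p, miR-200b-5p and miR-429-5p. The median over all tested miRNAs was 0.62 on that scaling, so this count cannot be set against the 51.5% of the TMM scale.

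In the seed group AACACUG, mmu-miR-200a-3p had 58202, 58677 and 36508 CPM in M1, M2 and M3, against 36467, 27785 and 31906 CPM in M4, M5 and M6. M3 and M4 were nearly equal, and M1 and M2 stood apart from the other 4 mice. The log2 fold change was -0.67 (SE 0.33, 95% interval -1.42 to 0.07, edgeR adjusted p = 0.255), -0.41 without M2 and 0.10 when scaled by total counts alone. mmu-miR-141-3p had 10501, 13923 and 4006 CPM in M1, M2 and M3, against 3982, 4775 and 5219 CPM in M4, M5 and M6. Here the healthy M3 lay among the CRC mice, so the groups overlapped. The log2 fold change was -1.02 (SE 0.46, 95% interval -2.07 to 0.02, edgeR adjusted p = 0.221). It was -0.09 when scaled by total counts alone, and -0.46 without M2.

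In the seed group AAUACUG, miR-200b-3p and miR-200c-3p had log2 fold changes of smaller size on the TMM scale, and miR-429-3p is given below. Scaled by total counts alone, miR-200b-3p ran from 7862 to 20603 CPM and miR-200c-3p from 1097 to 4257 CPM. miR-200a-3p ran from 34153 to 46837 CPM on that scaling, in proportion a narrower range. mmu-miR-200b-3p had 12534, 13507 and 13881 CPM in M1, M2 and M3, against 13516, 9794 and 14035 CPM in M4, M5 and M6. M5 was low and the other 5 mice lay within a narrow range. Its log2 fold change was -0.10 (SE 0.32, 95% interval -0.82 to 0.63, edgeR adjusted p = 0.888), and 0.59 when scaled by total counts alone. mmu-miR-200c-3p had 2182, 1885 and 2797 CPM in M1, M2 and M3, against 3262, 2301 and 2900 CPM in M4, M5 and M6. It was the only 3p arm with a value above 0 on the TMM scale, 0.30 (SE 0.36, 95% interval -0.50 to 1.10, edgeR adjusted p = 0.644), and the groups overlapped. Its log2 fold change was 0.92 when scaled by total counts alone.

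mmu-miR-429-3p, which shares its seed with miR-200b-3p and its cluster with miR-200a-3p, had 7202, 7042 and 6577 CPM in M1, M2 and M3, against 6421, 3637 and 4735 CPM in M4, M5 and M6. M4 lay close to the healthy mice, and M5 and M6 below. Its log2 fold change was -0.49 (SE 0.35, 95% interval -1.28 to 0.30, edgeR adjusted p = 0.423), -0.29 without M5 and 0.17 when scaled by total counts alone.

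The minor arms of the chromosome 4 cluster had lower values in M5 and M6. mmu-miR-200a-5p had 157, 152 and 91.9 CPM in M1, M2 and M3, against 103, 30.0 and 51.0 CPM in M4, M5 and M6 (log2 fold change -1.12, SE 0.52, edgeR adjusted p = 0.231). mmu-miR-200b-5p had 402, 371 and 231 CPM in M1, M2 and M3, against 275, 116 and 166 CPM in M4, M5 and M6 (-0.85, SE 0.46, edgeR adjusted p = 0.297). mmu-miR-429-5p had 24.5, 36.0 and 14.6 CPM in M1, M2 and M3, against 17.1, 8.50 and 9.77 CPM in M4, M5 and M6 (-1.08, SE 0.52, edgeR adjusted p = 0.239). For all 3 of these arms M4 lay above M3, so the groups overlapped, and M5 and M6 lay below every healthy mouse.

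The minor arms of the chromosome 6 cluster did not share that pattern throughout. mmu-miR-141-5p had 193, 174 and 204 CPM in M1, M2 and M3, against 201, 112 and 115 CPM in M4, M5 and M6 (-0.42, SE 0.41, edgeR adjusted p = 0.574). mmu-miR-200c-5p had 11.4, 11.7 and 22.7 CPM in M1, M2 and M3, against 23.5, 9.77 and 13.2 CPM in M4, M5 and M6 (0.02, SE 0.53, edgeR adjusted p = 0.985). It was highest in M3 and M4, and the mean of its groups hardly differed.

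Leaving out 1 mouse at a time moved these values both ways. Without M2, miR-429-5p was -0.57 and without M3 it was -1.42. Without M3, 1 member passed, miR-141-3p (-1.48, edgeR adjusted p = 0.0490; 5.90% of all tested passed). Without M4 it was miR-200a-5p (-1.62, edgeR adjusted p = 0.0399; 19.9% of all tested passed). Without M1, M2, M5 or M6, 0 members passed. Of all tested miRNAs 0 of 1096, 4 of 1106, 0 of 947 and 0 of 939 passed there. The lack of member calls in these fits is thus no result about the members.

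M1 and M2 on one side and M5 and M6 on the other were compared on the TMM scale, described without a test. Their TMM factors were 0.720 and 0.582 in M1 and M2, against 1.55 and 1.47 in M5 and M6. The differences therefore depend on the scaling. On the TMM scale miR-200a-3p differed by -1.25 in log2, miR-141-3p by -1.57 and miR-429-3p by -1.04. The minor arms miR-200a-5p (-2.20), miR-429-5p (-2.01), miR-200b-5p (-1.73) and miR-141-5p (-0.97) were also lower in M5 and M6. miR-200b-3p (-0.40), miR-200c-3p (0.08) and miR-200c-5p (-0.29) differed least. On the TMM scale 7 of the 10 were past the edgeR threshold, all lower in M5 and M6. In this selected contrast 53.2% of all 1082 miRNAs passed it, 27.4% lower and 25.8% higher. Scaled by total counts alone, miR-200a-3p had 41931 and 34153 CPM in M1 and M2, against 43072 and 46837 CPM in M5 and M6. By total counts miR-429-3p (5189 and 4099, against 5637 and 6951 CPM) and miR-141-5p were also higher in M5 and M6. So were the arms that differed least on the TMM scale. These were miR-200b-3p (9030 and 7862, against 15182 and 20603 CPM) and miR-200c-3p (1572 and 1097, against 3566 and 4257 CPM). The third was miR-200c-5p (8.21 and 6.81, against 15.1 and 19.3 CPM). miR-141-3p (7565 and 8104, against 7403 and 7662 CPM) and miR-200b-5p overlapped. miR-200a-5p and miR-429-5p stayed lower.

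**Figure D2:**
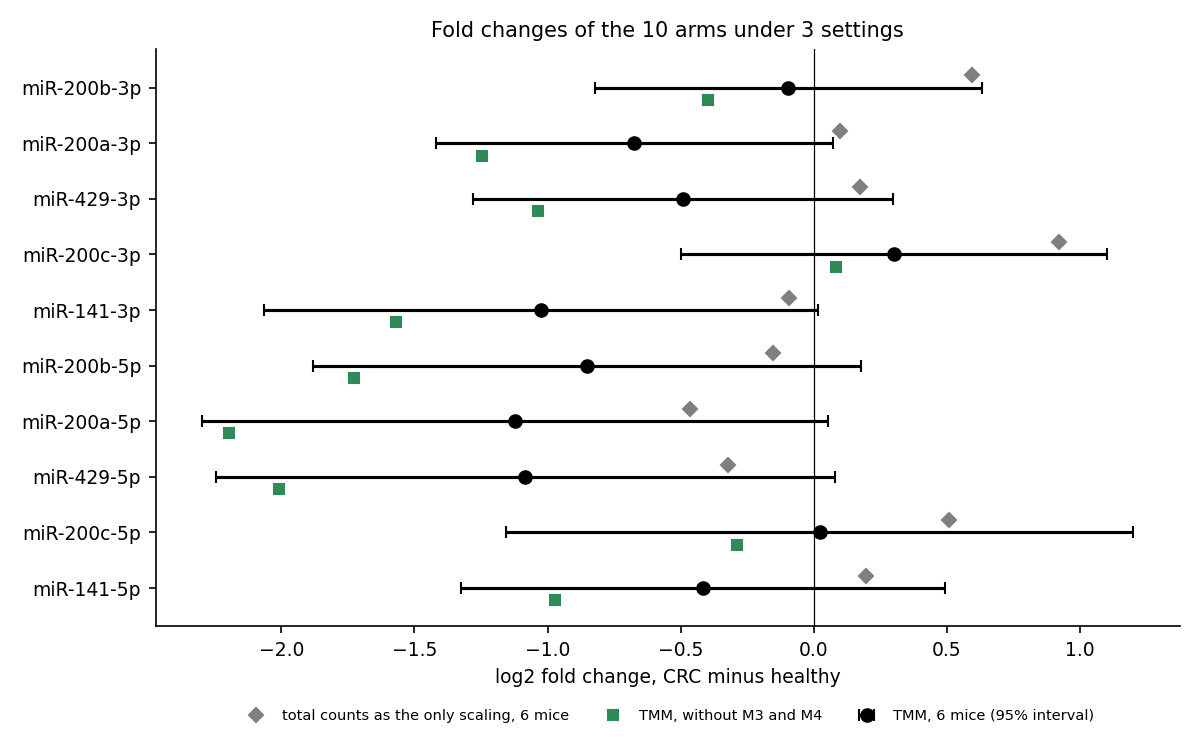
Log2 fold change, CRC minus healthy, of the 10 arms: black points with 95% intervals for all 6 mice on the TMM scale, grey diamonds when scaled by total counts alone, green squares on the TMM scale without M3 and M4. All 10 black intervals cross 0; the grey diamonds all lie to the right of the black points and the green squares all to the left.

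The 2 genomic clusters were then compared within each mouse, where the scaling between libraries cancels. Summed over 3p arms, the chromosome 4 cluster had 6.15, 5.01 and 8.37 reads per read of the chromosome 6 cluster in M1, M2 and M3, against 7.79, 5.82 and 6.24 in M4, M5 and M6. M3 and M4 were the highest and the groups overlapped widely. The log2 ratio was 2.67 ± 0.373 in healthy and 2.72 ± 0.219 in CRC mice (SD, n = 3 each; exact two-sided permutation p = 0.9, adjusted over the 7 tests 0.9). The difference of 0.04 changed sign with the choice of summary: it was -0.16 when log2 counts were averaged over the arms of each cluster in place of sums, -0.13 without M2 and -0.08 without M4.

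The 2 seed groups split the mice differently. The arms with AAUACUG had 0.319, 0.309 and 0.574 reads per read of the arms with AACACUG in M1, M2 and M3, against 0.574, 0.483 and 0.584 in M4, M5 and M6. M1 and M2 were low and the other 4 mice high, so the healthy M3 lay within the range of the CRC mice. The log2 ratio was -1.38 ± 0.503 in healthy and -0.88 ± 0.151 in CRC mice (SD, n = 3 each), a difference of 0.51 (exact two-sided permutation p = 0.3, adjusted p = 0.7). It was 0.35 without M2, 0.37 without M1, 0.80 without M3 and 0.76 without M3 and M4.

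**Figure D3:**
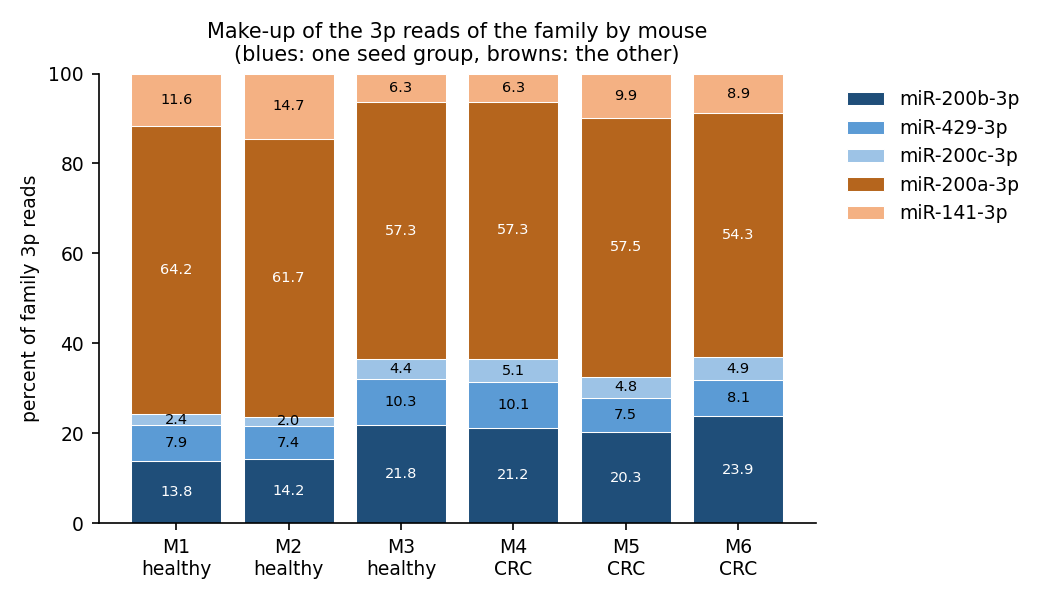
Make-up of the summed 3p reads of the family in each mouse, in percent, with blues for the seed group of miR-200b-3p and browns for that of miR-200a-3p. The blue part is 24.2% in M1 and 23.6% in M2 and between 32.6% and 36.9% in M3 to M6.

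As shares of the 3p reads of the family, miR-200a-3p took 64.2%, 61.7% and 57.3% in M1, M2 and M3, against 57.3%, 57.5% and 54.3% in M4, M5 and M6. miR-200b-3p took 13.8%, 14.2% and 21.8% in M1, M2 and M3, against 21.2%, 20.3% and 23.9% in M4, M5 and M6. miR-141-3p took 11.6%, 14.7% and 6.28% in M1, M2 and M3, against 6.26%, 9.89% and 8.88% in M4, M5 and M6. miR-429-3p ran from 7.41% to 10.3% and miR-200c-3p from 1.98% to 5.12%. The Wilson 95% intervals of these shares reached at most 0.188 percentage points to either side, well under the spread between mice.

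Within 1 seed group the clusters can be compared arm by arm. miR-200b-3p of chromosome 4 had 5.74, 7.16 and 4.96 reads per read of miR-200c-3p of chromosome 6 in M1, M2 and M3, against 4.14, 4.26 and 4.84 in M4, M5 and M6. All 3 CRC mice lay below all 3 healthy mice, by a small margin between M6 and M3. The log2 ratio was 2.56 ± 0.267 in healthy and 2.14 ± 0.120 in CRC mice (SD, n = 3 each). The difference of -0.42 had the smallest p that this design allows (exact two-sided permutation p = 0.1, adjusted p = 0.7). It lay between -0.54 and -0.28 when each mouse was left out in turn.

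In the other seed group, miR-200a-3p of chromosome 4 had 5.54, 4.21 and 9.11 reads per read of miR-141-3p of chromosome 6 in M1, M2 and M3, against 9.16, 5.82 and 6.11 in M4, M5 and M6. M3 and M4 stood together at the top, and the groups overlapped. The log2 ratio was 2.58 ± 0.564 in healthy and 2.78 ± 0.359 in CRC mice (SD, n = 3 each; exact two-sided permutation p = 0.5, adjusted p = 0.7). The difference of 0.20 was -0.05 without M2, -0.002 without M4 and 0.51 without M3.

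**Figure D4:**
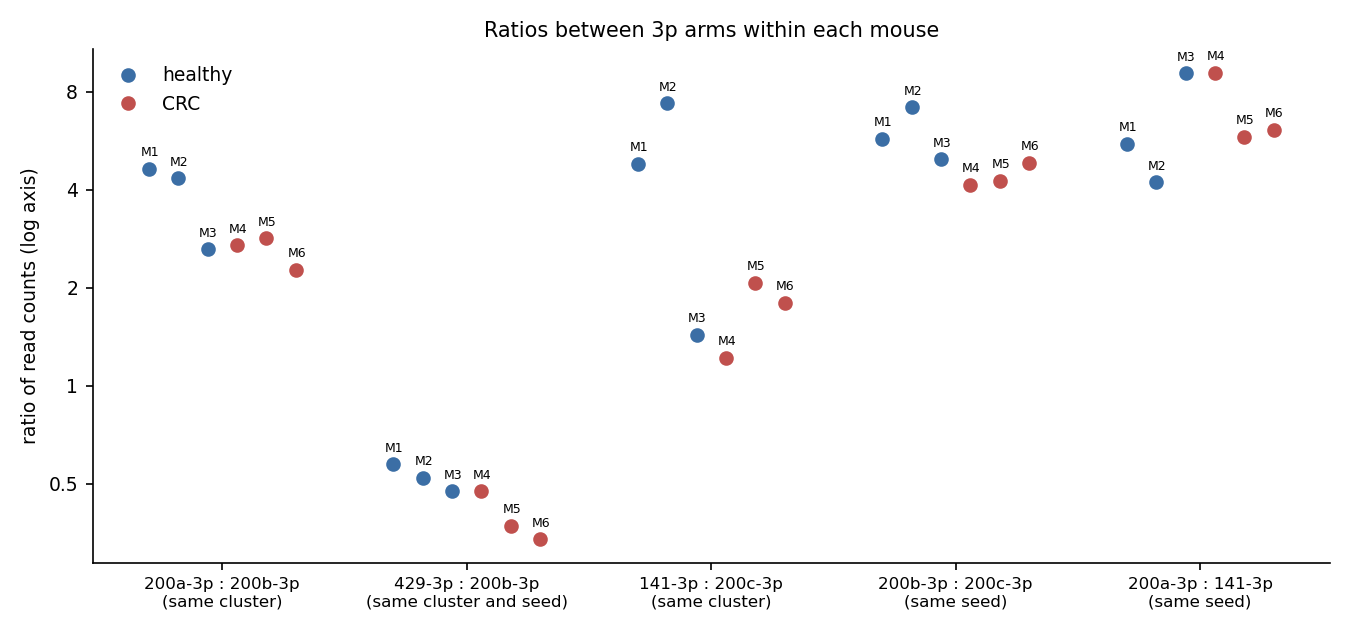
Ratios of read counts between 3p arms within each mouse on a log axis, healthy mice in blue and CRC mice in red. The ratio of miR-141-3p to miR-200c-3p spreads most, from 1.22 in M4 to 7.38 in M2, and that of miR-429-3p to miR-200b-3p least, from 0.337 in M6 to 0.575 in M1.

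Arms made from the same cluster were not in a fixed proportion, as ratios computed after the levels had been seen and given without a test show. miR-141-3p had 4.81, 7.38 and 1.43 reads per read of its cluster neighbour miR-200c-3p in M1, M2 and M3, against 1.22, 2.08 and 1.80 in M4, M5 and M6, a 6.05-fold range. M1 and M2 were well above the other 4 mice. On chromosome 4, miR-200a-3p had 4.64, 4.34 and 2.63 reads per read of miR-200b-3p in M1, M2 and M3, against 2.70, 2.84 and 2.27 in M4, M5 and M6, a 2.04-fold range with the same mice on top. miR-429-3p to miR-200b-3p, which share both cluster and seed, ran from 0.337 in M6 to 0.575 in M1.

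The minor arms of the same neighbours varied less. miR-141-5p had 16.9, 14.9 and 8.99 reads per read of miR-200c-5p in M1, M2 and M3, against 8.54, 11.4 and 8.76 in M4, M5 and M6, a 1.98-fold range. miR-200a-5p had 0.391, 0.409 and 0.399 reads per read of miR-200b-5p in M1, M2 and M3, against 0.375, 0.259 and 0.308 in M4, M5 and M6. For this pair of 5p arms M1 and M2 did not stand apart from M3 and M4, as they did for the 3p arms of the same hairpins.

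The balance of the 5p and 3p arm of each hairpin was compared in limma over 234 hairpins with a mean of at least 10 counts in both arms. None of the 5 family hairpins passed an adjusted p of 0.05 (1 of 234, 0.427%, did), and 0 of 5 were at an unadjusted p under 0.05 (12.8% of all). The 5p arm of mir-200b, the most balanced hairpin of chromosome 4, made up 3.11%, 2.67% and 1.63% of its reads in M1, M2 and M3, against 1.99%, 1.17% and 1.17% in M4, M5 and M6. M4 lay above M3, and M5 and M6 were the lowest. The log2 ratio of 5p to 3p differed by -0.79 between CRC and healthy mice (SE 0.48, 95% interval -1.86 to 0.29, limma adjusted p = 0.494).

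For mir-200a, which in M5 had the lowest 5p share of any member hairpin, the 5p arm made up 0.269%, 0.258% and 0.251% of the hairpin's reads in M1, M2 and M3, against 0.282%, 0.108% and 0.160% in M4, M5 and M6. M5 and M6 were low, and the other 4 mice were nearly equal. The difference in log2 ratio was -0.61 (SE 0.49, limma adjusted p = 0.605). mir-141, with the highest 5p share of the 5 hairpins in M3 to M6, had 1.80%, 1.24% and 4.84% in M1, M2 and M3, against 4.79%, 2.28% and 2.16% in M4, M5 and M6. M3 and M4 were again alike and M2 the lowest. Its difference was 0.39 (SE 0.61, limma adjusted p = 0.744), the only one of the 5 above 0.

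mir-200c had a 5p share of 0.423% to 0.804% over the 6 mice, on as few as 54 reads of the 5p arm, with a Wilson 95% interval of 0.324% to 0.551% in M5 where it was lowest. Its difference in log2 ratio was -0.30 (SE 0.46), and that of mir-429, with shares of 0.206% to 0.508%, was -0.52 (SE 0.48). Between M1 and M2 and M5 and M6 alone, again a description of selected mice, the log2 ratio of 5p to 3p differed by -1.33 for mir-200b, -1.004 for mir-200a and -0.91 for mir-429, all of chromosome 4, and by -0.37 for mir-200c and 0.59 for mir-141. The first 3 were past the limma threshold there, as were 39.6% of 245 hairpins.

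**Figure D5:**
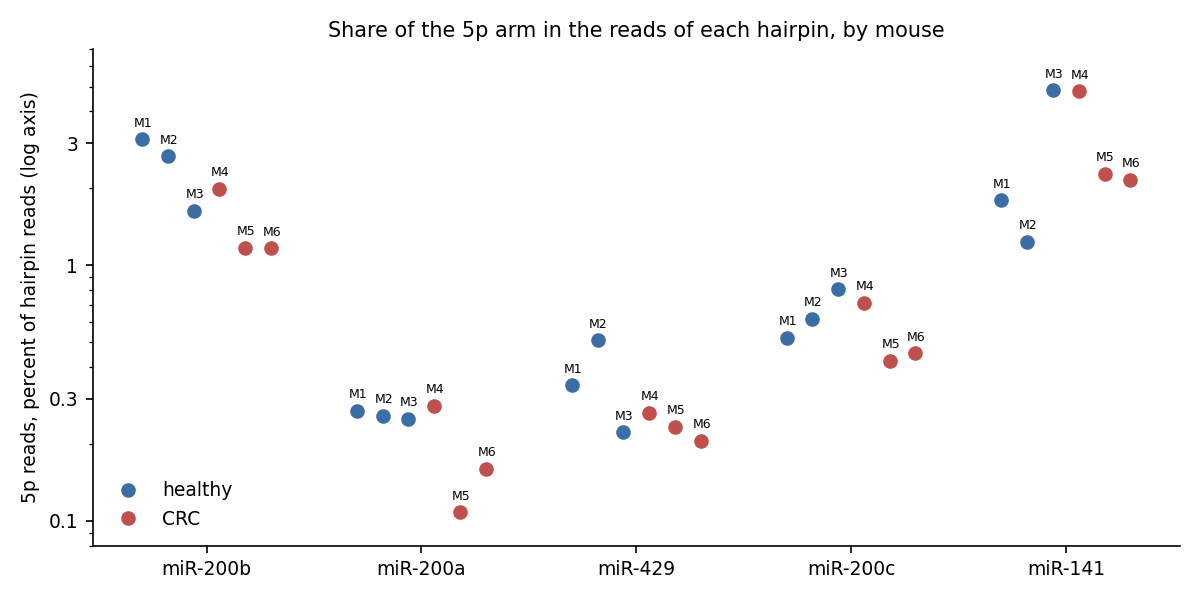
Share of the 5p arm in the reads of each of the 5 hairpins by mouse, in percent on a log axis, healthy mice in blue and CRC mice in red. The mir-141 hairpin has its highest 5p shares, 4.84% and 4.79%, in M3 and M4, whereas mir-200a and mir-200b have their lowest in M5 and M6.

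miR-192-5p, miR-194-5p and miR-215-5p, 3 of the 8 listed miRNAs of intestinal epithelium, are abundant in enterocytes, the absorptive cells of the gut. Set against these 3, the family kept no steady proportion. Of the 8 listed, 5 had log2 fold changes below 0 and 3 above, and the others were not set against the family. The 3p arms of the family had 0.852, 0.767 and 1.36 reads per read of these 3 in M1, M2 and M3, against 0.626, 1.22 and 0.969 in M4, M5 and M6. The highest value was in M3 and the lowest in M4, the pair of mice that were closest on the family itself. The log2 ratio was -0.06 ± 0.44 in healthy and -0.15 ± 0.489 in CRC mice (SD, n = 3 each), a difference of -0.09 (exact two-sided permutation p = 0.9, adjusted p = 0.9). It was 0.16 without M3, 0.18 without M4 and 0.43 without both. Between M3 and M4, miR-192-5p went from 28418 to 63937 CPM, miR-215-5p from 4963 to 19546 CPM and miR-194-5p from 13478 to 18209 CPM. The log2 level of miR-200a-3p in M4 minus M3 was -0.0016.

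Against smooth muscle, the 3p arms had 0.159, 0.116 and 0.340 reads per read of miR-143-3p and miR-145a-5p together in M1, M2 and M3, against 0.294, 1.07 and 1.34 in M4, M5 and M6. M5 and M6 were the highest, and M4 lay below M3, so the groups overlapped. The log2 ratio was -2.44 ± 0.796 in healthy and -0.41 ± 1.18 in CRC mice (SD, n = 3 each), a difference of 2.03 (exact two-sided permutation p = 0.2, adjusted p = 0.7). It was 1.69 without M2, 2.70 without M4 and 3.14 without M3 and M4. Markers of other cells also differed between mice. The squamous miRNA miR-205-5p had 437 CPM in M1 and 588 CPM in M2, against 4256 CPM in M3 and 1269 to 2486 CPM in the CRC mice. The 6 listed leukocyte miRNAs, 6 of 6 present, took 0.219% to 1.76% of reads in healthy and 0.836% to 1.27% in CRC mice. The 3 nerve miRNAs, 3 of 3 present, took 0.0346% to 0.0458% of reads in healthy and 0.0289% to 0.0330% in CRC mice, without overlap, and miR-124-3p among them had a log2 fold change of -2.34 (SE 0.60, edgeR adjusted p = 0.0622). The 3 red blood cell miRNAs, 3 of 3 present, took 0.0164% to 0.0621% in healthy and 0.0445% to 0.286% in CRC mice, with a median log2 fold change of 1.45. Fibroblast miRNAs, 4 of 4 present, took 0.725% to 0.859% in healthy and 0.675% to 1.01% in CRC mice, and endothelial ones, 2 of 2 present, 0.787% to 1.33% and 1.20% to 1.97%. The part of these cells in the values of the family was not tested.

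Beyond the family, miRNAs with known roles in the EMT gave no call. Of the restraining list 9 of 10 were tested, 0 rose and 0 fell, 4 had an unadjusted p under 0.05, 6 had values below 0 and the median log2 fold change was -0.42. Over all tested miRNAs 2.28% were called, none of them lower, 23.2% had such a p, 51.5% were below 0 and the median was -0.03. miR-30a-5p, which represses Snai1, had -0.77 (SE 0.33), miR-101a-3p, a repressor of Ezh2, -1.08 (SE 0.39), miR-203-3p, which restrains stem-like growth of epithelia, 0.54 (SE 0.49) and the p53-induced miR-34a-5p 0.34 (SE 0.40). Of the promoting list 8 of 8 were tested, 0 rose and 0 fell, 0 had an unadjusted p under 0.05, and the median was -0.52. Its most abundant member miR-21a-5p had 0.23 (SE 0.29), and miR-103-3p and miR-107-3p, known to lower the miR-200 family by repressing Dicer, had -0.50 (SE 0.43) and -0.54 (SE 0.46). Those 2 are near-identical in sequence, so reads may have been split between them. miR-221-3p, a promoter of proliferation, had -0.85 (SE 0.53).

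Among 271 other miRNAs with a mean of at least 50 CPM, likeness to the family was measured by Pearson's r, over the 6 mice, between log2 CPM and the mean log2 CPM of the 5 3p arms. It is a description of 6 libraries and carries no test. The 5 arms did not share 1 profile. Between log2 CPM of single arms, r was -0.86 for miR-200c-3p and miR-141-3p and -0.62 for miR-200c-3p and miR-200a-3p. It was 0.07 for miR-200b-3p and miR-141-3p, against 0.87 for miR-200a-3p and miR-141-3p and 0.83 for miR-200a-3p and miR-429-3p. Likeness to the mean is thus not likeness to each arm. The 5 most alike were miR-320-3p (r 0.985), miR-194-2-3p (0.976), miR-467a-5p (0.975), miR-378a-3p (0.972) and miR-378c (0.969). Both sides of each r are on the TMM scale. The mean log2 CPM of the 3p arms, turned back to CPM, was highest in M2 (10795) and M1 (10379) and lowest in M5 (6417). The TMM factors of M2, M1 and M5 were 0.582, 0.720 and 1.55. The part of the scaling in these r values was not tested. miR-320-3p, the most alike, had 879, 1018 and 503.7 CPM in M1, M2 and M3, against 493, 264 and 368 CPM in M4, M5 and M6. Like miR-200a-3p it was highest in M1 and M2, nearly equal in M3 and M4 and lowest in M5. miR-194-2-3p had 167, 168 and 56.5 CPM in M1, M2 and M3, against 82.4, 21.3 and 39.1 CPM in M4, M5 and M6, a wider range than any 3p arm of the family.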

How the data were processed

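Per the labels' protocols, small RNA of mouse colorectum was sequenced on an Ion Proton. The submitters' processing notes name BWA and mm10 (GRCm38). The deposited file holds raw counts per mature miRNA and mouse. The sources used here do not give how reads matching several miRNAs were counted. M1 is 1 replicate whichever of its libraries its column holds. Counts were tested over the whole table with edgeR 4.0.16 in R 4.3.3 (TMM, filterByExpr, robust glmQLFit and glmQLFTest, Benjamini-Hochberg), with DESeq2 1.42.0 and limma-voom (limma 3.58.1) as alternatives. Other alternatives were RLE, upper quartile and total-count scaling, no filter, a non-robust fit, thinning to the shallowest profile, removal of the GC trend, and leaving out mice. SE is the log2 fold change divided by the square root of F. Arm ratios (0.5 added to counts) were tested with limma. Ratios and shares were compared over mice by exact permutation. Scripts were tested on simulated data. The members, lists, tests and the rule for named miRNAs (all members, the 5 most alike, up to 4 abundant members of a list) were chosen with earlier results of these data known. Other miRNAs were named after their values were seen. Mice are separate animals, per the labels.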

Additional observations from a re-analysis of the deposited data

How the results depend on the processing

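The profiles of single mice decided most counts. Of the 10 members, 0 to 1 were called when each mouse was left out in turn (miR-141-3p without M3, miR-200a-5p without M4) and 7 without M3 and M4, a pair chosen for being alike across groups, so that counts without it are no test. Over all miRNAs 0 to 237 were called when each mouse was left out, and 576 without M3 and M4. Scaling by total counts alone gave 43, DESeq2 111, no filter 64, and limma-voom and thinned profiles 0 each, with 216 and 153 at an unadjusted p under 0.05. For the arm balance 3 hairpins were called without M3 and M4. Of 160 alternative fold changes of members, 146 kept their direction. Under scaling by total counts alone the exceptions were miR-200a-3p (0.10), miR-200b-3p (0.59), miR-429-3p (0.17) and miR-141-5p (0.20). miR-200b-3p had 0.15 in thinned profiles, 0.13 with the GC trend removed and -0.20 to 0.074 when each mouse was left out. miR-200c-5p had -0.017 with no filter, -0.14 with the GC trend removed, -0.29 without M3 and M4 and -0.34 to 0.36 when each mouse was left out. The family share differed by -1.92 percentage points, turning round, without miR-143-3p and miR-145a-5p in the total. With log2 counts averaged, the cluster ratio was -0.16 and the ratio to the enterocyte miRNAs was 0.32; the latter was 0.43 without M3 and M4. When each mouse was left out, the cluster ratio ran from -0.13 to 0.24, that of miR-200a-3p to miR-141-3p from -0.047 to 0.51, that to the enterocyte miRNAs from -0.30 to 0.18 and the 5p to 3p balance of mir-141 from -0.043 to 0.97. The ratio to smooth muscle was 3.14 without M3 and M4. The cause was not tested for these. The ratios of the seed groups and of miR-200b-3p to miR-200c-3p kept their direction under the alternatives run for each. No paired analysis was possible because the labels number the mice M1 to M6 with no number in both groups. The number of mice limits the precision of the abundant arms, and counts as low as 46 add to it for miR-429-5p and miR-200c-5p.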
